A study of Mus musculus with 10 samples.

Results

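The dystrophin glycoprotein complex was followed here through the mRNAs of 8 of its genes, Dmd, Utrn, Dag1, Sgca, Sgcb, Sgcd, Sspn and Dtna, out of 37947 gene symbols in the deposited RNA sequencing values. RNA came from the gastrocnemius, the large calf muscle, of male C57BL/6 mice, 5 young (6 months old, libraries young 1 to 5) and 5 aged (24 months old, libraries aged 1 to 5), with 1 library for each mouse. The labels give no engineered allele and no treatment, so age is what separates the groups. Values are log2 FPKM, the fragments on a transcript scaled to its length and to the size of the library, and an FPKM of 1 or less is listed as 0. Each row of the file is a transcript, and each gene was taken at its row with the highest mean over the 10 libraries. The 8 genes have 33 rows of 92251, of which 30 were above 0 in at least 1 library and 26 had a mean FPKM of at least 1 and were tested.

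The complex spans the membrane of the muscle fiber. Dystrophin (Dmd) binds actin inside the fiber and the beta part of dystroglycan (Dag1) at the membrane, and the alpha part of dystroglycan binds laminin in the basal lamina outside. The sarcoglycans (Sgca, Sgcb, Sgcd and others) and sarcospan (Sspn) form a subcomplex beside dystroglycan, alpha-dystrobrevin (Dtna) and the syntrophins sit on the inner side, and utrophin (Utrn) is a relative of dystrophin that is concentrated at the neuromuscular junction of adult fibers. Loss of dystrophin causes Duchenne muscular dystrophy, and loss of alpha-, beta- or delta-sarcoglycan causes a limb-girdle dystrophy.

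Dmd lies at chrX:82948870-85206141 (GRCm38, forward strand) and has rows that begin far apart, which matters for reading its values. The row used by the rule, Dmd-003, has 4438 bases and matched by length an annotated coding transcript of 18 exons at chrX:85048413-85205039, at the end of the gene. Of its bases, 98.9% also belong to the full-length transcript, so reads from full-length dystrophin mRNA count toward it. The full-length row, Dmd-001, has 14910 bases and 79 exons (chrX:82948903-85206141). The 250 bases before the RefSeq start sites near both rows (GRCm38.p6) are printed to show that these are separate promoter regions, at chrX:82948620-82948869 and chrX:85048045-85048294, both on the forward strand. Capitals mark the E-box CANNTG, the motif bound by the myogenic regulators, which reads the same on both strands.
full-length Dmd: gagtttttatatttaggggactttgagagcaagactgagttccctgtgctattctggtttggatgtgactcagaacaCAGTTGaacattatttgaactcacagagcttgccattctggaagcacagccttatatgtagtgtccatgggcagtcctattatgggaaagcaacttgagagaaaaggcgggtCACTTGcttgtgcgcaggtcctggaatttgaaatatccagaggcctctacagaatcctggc
short Dmd: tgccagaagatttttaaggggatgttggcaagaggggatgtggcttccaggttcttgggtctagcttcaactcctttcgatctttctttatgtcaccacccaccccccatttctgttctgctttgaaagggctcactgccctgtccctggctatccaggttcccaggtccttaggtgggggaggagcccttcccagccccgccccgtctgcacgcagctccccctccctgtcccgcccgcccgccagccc
The first window held 2 E-boxes, with GC at 45.2% of its bases, and the second held 0, with GC at 60% of its bases. A window of this length holds an E-box in 66.2% of 32851 RefSeq start sites, so the motif is common and a match is a description of the letters, not a binding site.

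The question was whether the mRNAs of the complex differ between young and aged muscle. No difference between the ages was found for any of the 8. By limma across all 38059 rows tested, 0 of 8 were called at an adjusted p under 0.05, and every one had an adjusted p of 1. The same fit called 3 rows higher (0.00788%) and 0 lower, and 0 in either direction with the replicate number as a block. At limma's unadjusted p under 0.05, 0 of 8 members passed, beside 4.63% of all rows (3.89% higher and 0.738% lower). Two-sided exact permutation tests of 5 against 5, which cannot give a p below 0.00794, left 0 of 8 with a p under 0.05, beside 6.43% of all rows. The study's criteria, a 2-fold difference of means with an unadjusted p under 0.05, were met by 0 of 8 members and 0 of their 26 tested rows, beside 0.57% of all rows higher and 0.092% lower (35 rows, or 18 with the replicate block). The difference, aged minus young, was above 0 for 4 of 8 members with a median of 0.01 log2, and above 0 for 55.1% of all rows with a median of 0.03. The values are of whole muscle, in which fewer cells of a type and less RNA per cell cannot be told apart.

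**Figure D1:**
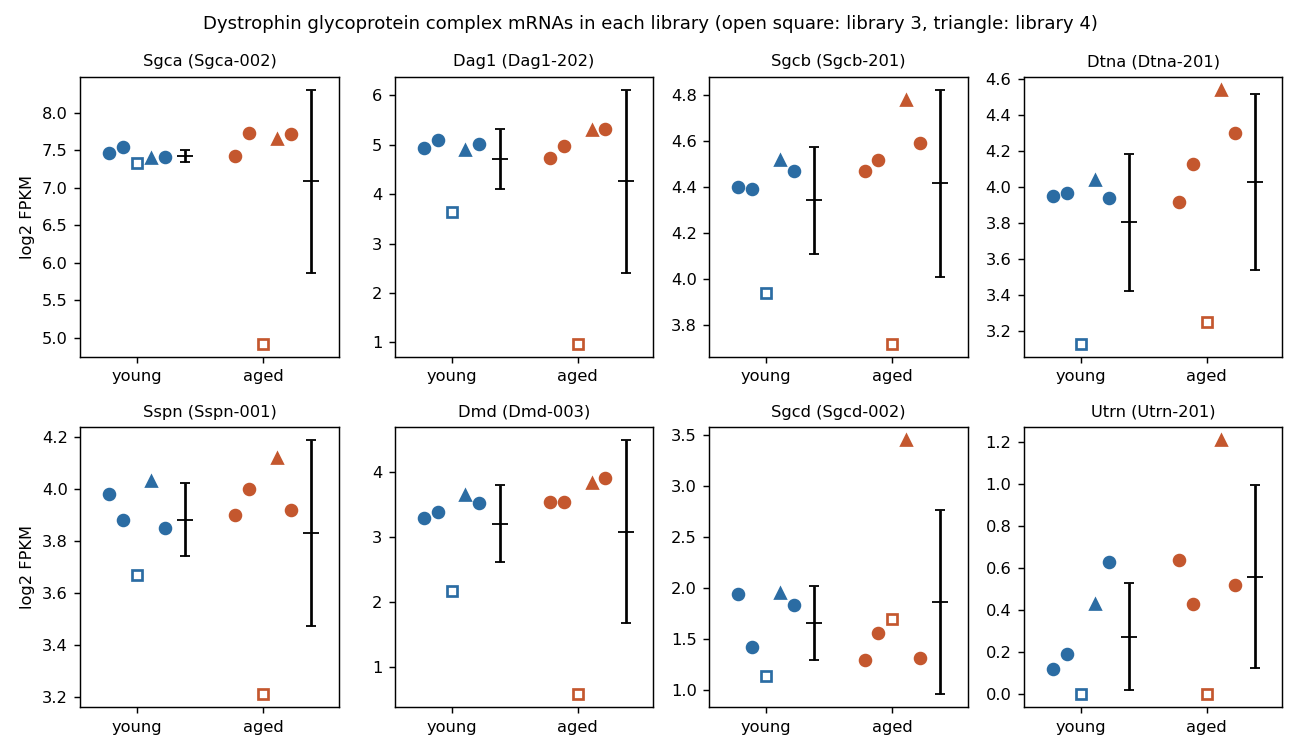
Log2 FPKM of the 8 members in each young (blue) and aged (orange) library, with the group mean and SD (n = 5) as a bar at the right of each group and a separate vertical scale for each gene. The groups overlap for every member, the open squares of the libraries numbered 3 lie lowest in their group for most genes, and aged library 4 (orange triangle) stands alone for Sgcd at 3.45.

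Depth was 19886365 to 34554355 reads, recovered from the steps between the deposited values, and the libraries numbered 3 were the deepest of their groups. They also stood apart. Young 3 held the lowest young value of 8 of 8 members, and aged 3 the lowest aged value of 7 of 8, Sgcd being the exception. Measured from the mean of the 8 libraries not numbered 3, the median deviation of the members was -0.64 log2 in young 3 and -0.82 in aged 3, against -0.22 and -0.60 for all rows. Aged 4 held the highest aged value of 5 of 8 members, with a median deviation of 0.26 for members and 0.12 for all rows. Genes with 1 row show where such deviations fell: for the 108 such rows of 4 kb or more the median deviation was -0.36 in young 3, -0.38 in aged 3 and 0.22 in aged 4, while for the 279 rows of 1 to 2 kb it was 0.13, 0.24 and 0.00. For the 260 rows of 2 to 4 kb it was 0.00, -0.01 and 0.03, and for the 517 rows under 1 kb it was -0.07, -0.23 and 0.06, so the deviations were not ordered by length throughout. The part of RNA quality or library preparation in this was not tested. Differences of the members, of the other components and of the genes named from the further lists are therefore given with all 10 libraries and without both libraries numbered 3, a reduction to 4 against 4 for which the smallest exact permutation p is 0.0286.

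Without the libraries numbered 3, all 8 differences were above 0, with a median of 0.16 log2, but so were 72.1% of all rows tested, whose median was 0.13. None of the 8 was called (limma adjusted p from 0.477 to 0.927), and limma then called 0.0289% of all rows. By the exact permutation test 0 of 8 had a p under 0.05, beside 8.13% of all rows higher and 0.859% lower. The intervals narrowed for 7 of 8 members, which shows in the plot of differences.

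**Figure D2:**
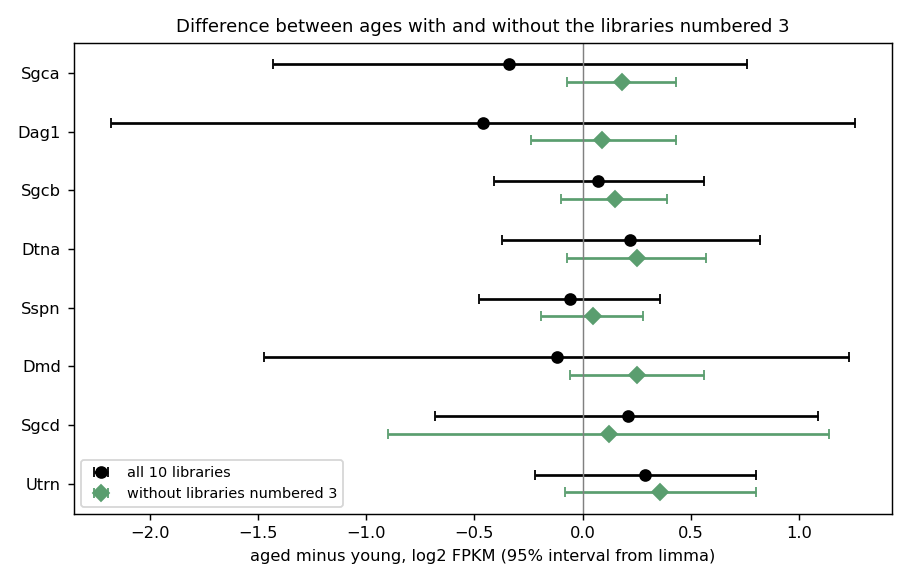
Aged minus young difference in log2 FPKM for each member, with its limma 95% interval, from all 10 libraries (black circles) and without both libraries numbered 3 (green diamonds). Every interval includes 0 in both sets, and those of Dmd, Dag1 and Sgca narrow most.

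Dmd, at Dmd-003, had young values (libraries 1 to 5 in order) of 3.29, 3.39, 2.18, 3.65 and 3.52 log2 FPKM. The aged values, in the same order, were 3.54, 3.54, 0.59, 3.83 and 3.91, and the row held 213 to 1679 reads. Both libraries numbered 3 fell far below the rest, and the groups overlapped. The mean was 3.20 ± 0.59 in young and 3.08 ± 1.40 in aged muscle (SD, n = 5 each), a difference of -0.12 (limma SE 0.61, 95% interval -1.47 to 1.23, exact permutation p = 0.976). Without the libraries numbered 3 the difference was 0.25 (interval -0.06 to 0.56, exact permutation p = 0.114). At the full-length row Dmd-001 the young values were 2.13, 2.10, 0.53, 2.36 and 2.32 and the aged values 2.11, 2.18, 0, 3.21 and 2.66. This row was lowest in both libraries numbered 3 and highest in aged 4, and since it shares exons and reads with Dmd-003 it is not a separate measurement of full-length mRNA.

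Dag1, which encodes both parts of dystroglycan, lies at chr9:108204634-108263958 (reverse strand) and was used at Dag1-202, a coding transcript of 3 exons. It was at 4.94, 5.10, 3.64, 4.89 and 5.02 log2 FPKM in young 1 to 5 and at 4.74, 4.98, 0.97, 5.29 and 5.31 in aged 1 to 5. The drop in aged 3 was the deepest of any member, 4.16 log2 below the median of the other aged libraries, and rested on 265 reads against 2410 to 4411 in the others. The difference between ages was -0.46 (SE 0.77, 95% interval -2.18 to 1.26, exact permutation p = 0.865), and 0.09 (interval -0.24 to 0.43, exact permutation p = 0.514) without the libraries numbered 3. The 3 rows of Dag1 held 2668, 2693 and 2716 reads in young 1, so these 3 rows hold largely the same reads and are not separate measurements.

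Utrn lies at chr10:12382188-12869365 (reverse strand) and had 1 row above 0, Utrn-201, a coding transcript of 74 exons and 12382 bases. It was the lowest member, close to the limit below which values are listed at 0. Young 1 to 5 were at 0.12, 0.19, 0, 0.43 and 0.63 log2 FPKM, and aged 1 to 5 at 0.64, 0.43, 0, 1.21 and 0.52. It was listed at 0 in both libraries numbered 3, highest in aged 4, and the groups overlapped. Where it was listed above 0, the values rested on 275 to 760 reads over this long transcript. The difference was 0.29 (SE 0.23, 95% interval -0.22 to 0.80, exact permutation p = 0.262), and 0.36 without the libraries numbered 3 (interval -0.08 to 0.80, exact permutation p = 0.143). Without aged 4 it was 0.12.

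Set against dystrophin within each library, Utrn minus Dmd was -2.93 ± 0.44 log2 in young and -2.52 ± 1.11 in aged muscle (SD, n = 5 each), a difference of 0.41 (exact permutation p = 0.595). Aged 3 alone was at -0.59, where Utrn was listed at 0 and Dmd was at its lowest, and the other aged libraries were between -3.39 and -2.62. Without aged 3 the difference turned to -0.08, and with young 3 left out as well it was 0.11 (exact permutation p = 0.543). Young 3, where Utrn was also listed at 0, was the highest young library at -2.18. At these rows, Utrn minus Dmd was therefore not found to differ with age. Dmd-003 covers the end of the gene, so this is not a balance of full-length utrophin to full-length dystrophin mRNA.

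Sgca, encoding alpha-sarcoglycan, was the most abundant member (chr11:94962791-94976327, reverse strand). Its row Sgca-002 is a short one, 351 bases of 3 exons near the start of the mRNA. Young 1 to 5 were at 7.46, 7.54, 7.33, 7.40 and 7.41 log2 FPKM and aged 1 to 5 at 7.43, 7.73, 4.92, 7.65 and 7.72. The young values were the tightest of any member (SD 0.08), and aged 3 alone set the aged SD of 1.22. The difference was -0.34 (SE 0.49, 95% interval -1.43 to 0.76, exact permutation p = 0.984). With the libraries numbered 3 left out it was 0.18 (interval -0.07 to 0.43, exact permutation p = 0.0857). Without aged 3 alone it was 0.21 (exact permutation p = 0.0397), when 11.6% of all rows were higher at an exact p under 0.05, and the limma call was still not reached.

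Sgcb, encoding beta-sarcoglycan (chr5:73632749-73647790, reverse strand), was at 4.40, 4.39, 3.94, 4.52 and 4.47 log2 FPKM in young 1 to 5 and at 4.47, 4.52, 3.72, 4.78 and 4.59 in aged 1 to 5. The spread was small apart from the libraries numbered 3. The difference was 0.07 (SE 0.22, 95% interval -0.41 to 0.56, exact permutation p = 0.706), and 0.15 (interval -0.10 to 0.39) without the libraries numbered 3.

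Sgcd, encoding delta-sarcoglycan (chr11:46896253-47988969, reverse strand), followed another pattern. Young 1 to 5 were at 1.94, 1.42, 1.14, 1.95 and 1.83 log2 FPKM and aged 1 to 5 at 1.29, 1.56, 1.70, 3.45 and 1.31. Aged 4, with 469 reads on Sgcd-002, stood above every other library, the next being young 4 at 1.95, and the others held 81 to 167 reads. It was also the aged library with a value for the longer Sgcd-003, at 1.58, where the other aged libraries were listed at 0. The difference was 0.21 (SE 0.40, 95% interval -0.68 to 1.09, exact permutation p = 0.81), and 0.12 (interval -0.90 to 1.14) without the libraries numbered 3. It turned to -0.19 without aged 4, and was -0.40 (exact permutation p = 0.0857) without aged 4 and both libraries numbered 3.

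Sspn, encoding sarcospan (chr6:145931641-145965223, forward strand), was at 3.98, 3.88, 3.67, 4.03 and 3.85 log2 FPKM in young 1 to 5 and at 3.90, 4.00, 3.21, 4.12 and 3.92 in aged 1 to 5. Its difference was the smallest in size, -0.06 (SE 0.19, 95% interval -0.48 to 0.36, exact permutation p = 0.881), and 0.05 (interval -0.19 to 0.28) without the libraries numbered 3. Both intervals lie within a 2-fold difference in either direction.

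Dtna, encoding alpha-dystrobrevin (chr18:23415135-23659715, forward strand), was at 3.95, 3.97, 3.13, 4.04 and 3.94 log2 FPKM in young 1 to 5 and at 3.92, 4.13, 3.25, 4.54 and 4.30 in aged 1 to 5. The difference was 0.22 (SE 0.27, 95% interval -0.37 to 0.82, exact permutation p = 0.421), and 0.25 (interval -0.07 to 0.57) without the libraries numbered 3. It fell to 0.06 without young 3, the lowest young library, and to 0.10 without aged 4. At its other row, Dtna-202, the difference was 0.00 (exact permutation p = 0.992), and 0.11 without the libraries numbered 3. Its shorter row, Dtna-201, stood above the longer Dtna-202 by 0.79 ± 0.07 log2 in young and 1.02 ± 0.20 in aged libraries (SD, n = 5 each), a pair of rows looked at after their values were seen and given without a test. The aged range of this difference, 0.83 to 1.33, overlapped the young range, 0.73 to 0.91, and its highest value was in aged 3.

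Because FPKM is scaled to length, the levels of the members can be ordered. Mean log2 FPKM over the 10 libraries was 7.26 for Sgca, 4.49 for Dag1, 4.38 for Sgcb, 3.92 for Dtna, 3.85 for Sspn, 3.14 for Dmd, 1.76 for Sgcd and 0.42 for Utrn. Sgca thus stood 2.77 log2 above the next member, and was higher in 10 of 10 libraries. Dag1 exceeded Sgcb by 0.11 ± 1.04 log2 within libraries and Dtna exceeded Sspn by 0.06 ± 0.26 (SD, n = 10), each in 8 of 10 libraries. Without the libraries numbered 3, Dag1 exceeded Sgcb by 0.52 ± 0.15 (SD, n = 8), in 8 of 8 libraries, whereas Dtna and Sspn still lay within their spread (0.14 ± 0.17). The other neighbors were in the stated order in 10 of 10 libraries, or 9 of 10 for Dmd above Sgcd. The rows were chosen for their highest mean over these libraries, so the order is a description with no test. The order is that of the rows used, and for Dmd the full-length row had a mean of 1.96 in place of 3.14. For Sgca the longest row, Sgca-001 of 1724 bases, had a mean of 6.60 in place of 7.26.

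Rows of a gene that cover different parts of the mRNA showed how the libraries numbered 3 differed. For Sgca, whose rows all lie within a mRNA of 1724 bases, aged 3 minus the median of the other aged libraries was -2.77 log2 for Sgca-002, whose exons lie on average 1342 bases from the 3′ end, and 1.16 for Sgca-003, at 394 bases. Young 3 went the same way by less, with -0.11 and 0.77. Within each library, Sgca-003 minus Sgca-002 was 2.62 log2 in aged 3, between -1.56 and -1.04 in the other aged libraries, and -0.29 in young 3, which was the highest young value, the lowest being -1.31. The direction of Sgca between the ages depended on this choice, being -0.34 at Sgca-002, 0.04 at Sgca-201, a row of 10 exons, and 0.16 at Sgca-003. For Dmd, 7 rows above 0 in all other libraries were listed at 0 in both libraries numbered 3, and in aged 3 the one row above 0 was Dmd-003, which lies nearest the 3′ end.

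**Figure D3:**
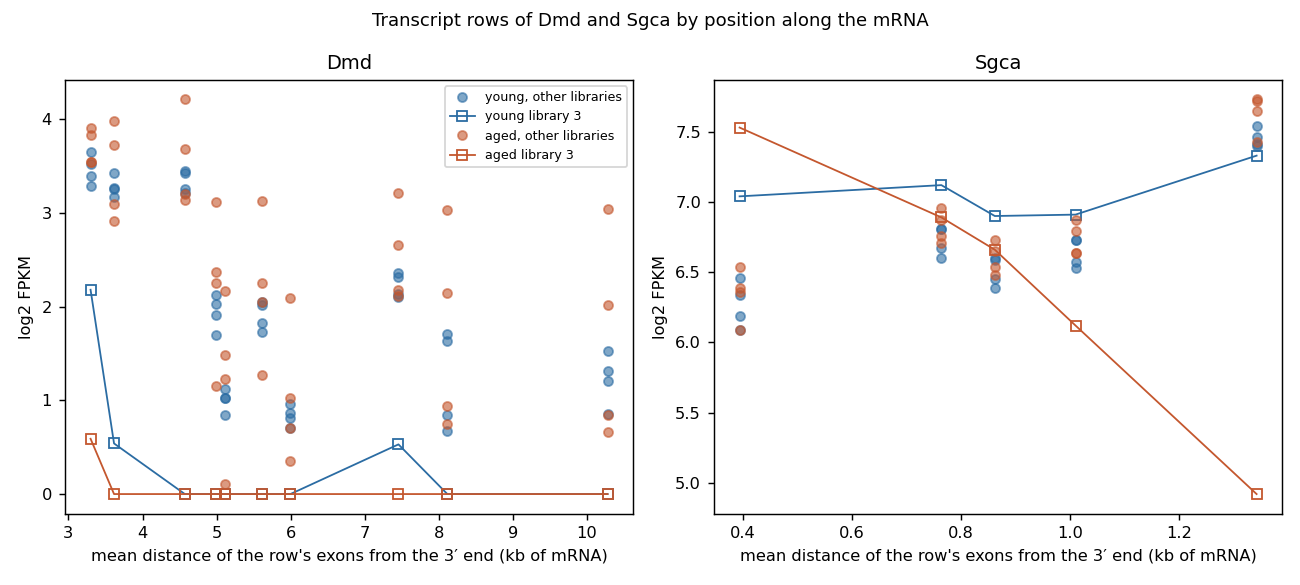
Log2 FPKM of the transcript rows of Dmd (left) and Sgca (right) against the mean distance of the row's exons from the 3′ end in kb of mRNA, with the libraries numbered 3 as open squares joined by lines and the other libraries as circles. In aged library 3 the Sgca rows descend from 7.53 to 4.92 with distance, whereas in the other libraries the farthest row is the highest, and of the Dmd rows in both libraries numbered 3 most are at 0 and the row nearest the 3′ end is the highest, at 2.18 in young and 0.59 in aged muscle.

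Of the other components of the complex, 8 were read in the same way, and 3 of them had a mean FPKM of at least 1. None was called by limma, and the median difference of the 3 was -0.20. Nos1, the neuronal nitric oxide synthase anchored to the complex at the membrane, was at 2.77, 2.86, 1.73, 2.65 and 2.50 log2 FPKM in young 1 to 5 and 2.35, 2.57, 1.09, 3.14 and 1.59 in aged 1 to 5, with a difference of -0.35 (exact permutation p = 0.405), or -0.28 without the libraries numbered 3. Without aged 4, its highest library, and those numbered 3 it was -0.52 (exact permutation p = 0.0571). Within each age it was lowest in library 3, and the groups overlapped. Sgce, encoding epsilon-sarcoglycan, was at 1.98, 1.92, 1.97, 2.16 and 1.88 in young and 2.42, 2.08, 1.42, 2.02 and 2.19 in aged libraries, with a difference of 0.04 (exact permutation p = 0.817), or 0.19 without the libraries numbered 3 (exact permutation p = 0.114). Dtnb, encoding beta-dystrobrevin, was low at its row Dtnb-023, with means of 0.63 and 0.44. The difference was -0.20 (exact permutation p = 0.405), or -0.29 without the libraries numbered 3, in which this row was highest of its group. The reading depended on the row. A longer one, Dtnb-016, looked at after its values were seen, was at 0.74, 0.32, 0.45, 0.63 and 0.34 in young libraries. In aged libraries it was at 0, 0.16, 0, 0.19 and 0.17, without overlap but near the listing floor. In all rows tested, 0.292% did not overlap with aged lower. Sgcz, another sarcoglycan, and the syntrophins Sntb2, Sntg1 and Sntg2 were listed at 0 in all 10 libraries, and Sntb1 was listed above 0 in young 1 alone, at 0.19.

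**Figure D4:**
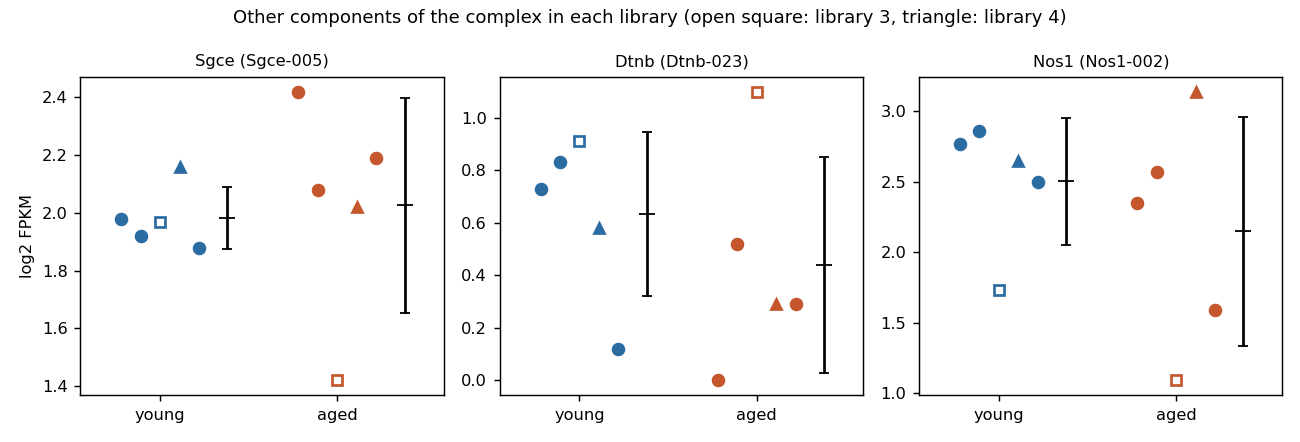
Log2 FPKM of Sgce, Dtnb and Nos1, the 3 other components with a mean FPKM of at least 1, in each young (blue) and aged (orange) library, with the group mean and SD (n = 5) as a bar and a separate vertical scale for each gene. At the row shown the groups overlap for each gene, and among aged libraries number 3 (open square) is lowest for Sgce and Nos1 and highest for Dtnb.

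Genes that act on or beside the complex gave no limma call in any of 5 further lists, whose values are given with all libraries first and then without those numbered 3. Of the basal lamina ligands, which include the laminins and agrin that dystroglycan binds, 16 of 16 were tested, 8 differences were above 0 and the median was -0.03 log2 (then 0.01). The genes with the lowest limma p there were Bgn, encoding biglycan (0.49, exact permutation p = 0.0952, then 0.39), and Col4a2, a chain of collagen IV (-0.37, exact permutation p = 0.111, then -0.34). The genes for glycosylation of dystroglycan, without which it does not bind laminin, had 16 of 17 tested and a median of -0.01 (then 0.03), led by Dpm2 (0.53, exact permutation p = 0.0873, then 0.42) and Dpm1 (0.29, exact permutation p = 0.0476, then 0.36), subunits of the dolichol-phosphate mannose synthase.

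Cytoskeletal linkers had 10 of 12 genes tested and a median of 0.13 (then 0.25). Krt18, a keratin, was the 1 gene of these lists past the study's criteria, which 0.57% of all rows met with aged higher. It was listed at 0 in all 5 young libraries and between 0 and 2.51 log2 FPKM in the aged ones (exact permutation p = 0.0476, limma adjusted p = 1). Krt18 thus passed the filter through its aged values alone, and its difference is measured from the listing floor. The criteria were not met without aged 4 or without the libraries numbered 3, where the difference was 1.23. Cryab, the chaperone of desmin, had a difference of 0.66 (exact permutation p = 0.0556, then 0.56). The integrin linkage, the other tie of the fiber to laminin, had 11 of 11 tested, 9 of them above 0, and a median of 0.24 (then 0.29). Its leading genes were Itga5, the fibronectin receptor subunit (0.94, exact permutation p = 0.0159, limma adjusted p = 1), and Tln1, encoding talin (0.36, exact permutation p = 0.0159, limma adjusted p = 1, then 0.32). Itga5 was near the listing floor in young muscle, with 2 libraries at 0 and a highest value of 0.57. It was highest in aged 3, 1.75 log2 above the median of the other aged libraries, and its difference was 0.56 (exact permutation p = 0.0571) without the libraries numbered 3. Itga7, the partner of laminin in mature fibers, was at 0.08 (exact permutation p = 0.405, then 0.15). Membrane repair had 11 of 12 tested and a median of 0.15 (then 0.14), led by Ahnak (0.46, exact permutation p = 0.0159, limma adjusted p = 1, then 0.47) and Anxa1 (0.29, exact permutation p = 0.0714, then 0.32). In all rows tested, 5.16% were higher at an exact p under 0.05 and 1.28% lower.

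Markers placed the tissue and its other cells. All 12 muscle fiber markers were tested and limma called none. Of their differences 4 were above 0, those of Myh7 (1.24), Mb (0.62), Myh2 (0.27) and Ttn (0.10), and the median was -0.07. Myh4, a fast myosin, was at -0.27 (exact permutation p = 0.0238) and at -0.32 without the libraries numbered 3. The summed FPKM of the 12 markers was 93400 to 110000 in young and 77500 to 96600 in aged libraries, as the label of the tissue says. Utrophin is also known from the junction and from vessels, so those markers were set beside it. The summed FPKM of the 8 neuromuscular junction markers was 39.9 to 43.5 in young and 45.5 to 64.3 in aged libraries, without overlap, with Chrnd and Chrng listed at 0 in all 10. In all rows tested, 1.25% did not overlap with aged higher. Within that list Chrna1 and Chrnb1, subunits of the acetylcholine receptor, differed by 1.33 and 0.87 log2 (exact permutation p = 0.00794 for each, limma adjusted p = 0.222 and 0.18), and by 1.16 and 0.86 without the libraries numbered 3. The 4 other junction markers tested were at 0.40 (Chrne), 0.19 (Musk), 0.00 (Rapsn) and -0.33 (Ache). Without the libraries numbered 3 and aged 4 these values became 0.05, -0.07, -0.09 and -0.51, and those of Chrna1 and Chrnb1 became 1.00 and 0.85. The 6 endothelial markers summed to 39 to 46.4 in young and 45.6 to 61 in aged libraries, and aged 4, where Utrn was highest, was highest for both lists. Their part in the level of Utrn was not tested. The summed FPKM of the 6 macrophage markers was 13 to 30.6 in young and 23 to 96.7 in aged libraries, also highest in aged 4. Cd68 (1.41) and Lyz2 (1.22) were past the study's criteria, as were 0.57% of all rows, and without the libraries numbered 3 and aged 4 their differences, 0.83 and 0.80, were below 2-fold. Cd68 was listed at 0 in 4 young libraries and at 0.29 at most in young muscle. It thus passed the filter through its aged values, and its difference is measured from the listing floor. The part of macrophages in the levels of the members was not tested. Fibroblast markers summed to 167 to 278 and 129 to 281, with 3 of 6 differences above 0 and 1 marker, Col3a1, past the criteria with a lower aged mean (-1.03, or -0.96 and no longer past them without the libraries numbered 3), smooth muscle to 81.5 to 173 and 93.5 to 157, adipocytes to 188 to 441 and 254 to 441, Schwann cells to 20.4 to 137 and 34.8 to 233, and satellite cells to 3.83 to 5.75 and 4.07 to 7.1 with Pax7 and Myf5 listed at 0.

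**Figure D5:**
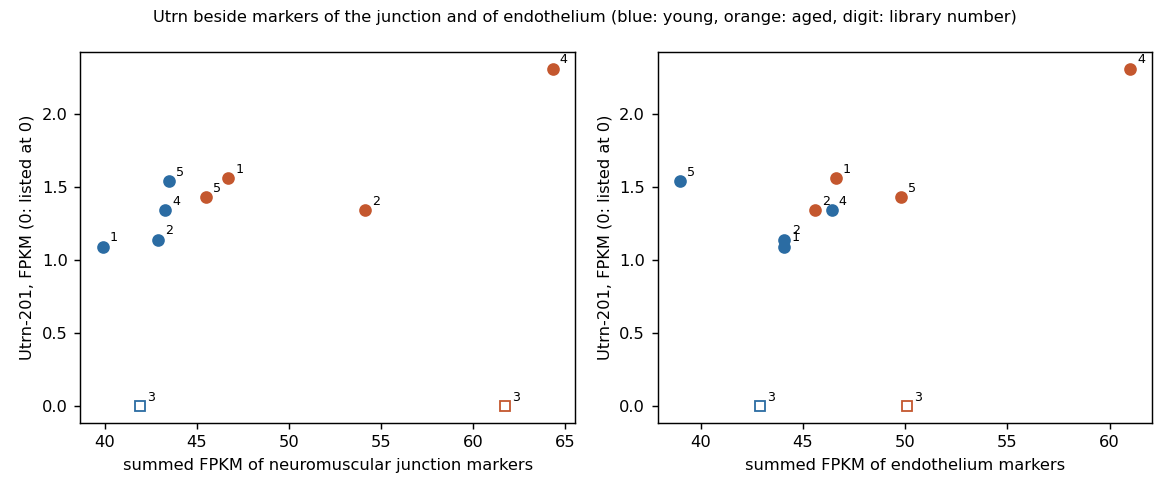
FPKM of Utrn-201 (listed at 0 in the libraries numbered 3, open squares) against the summed FPKM of neuromuscular junction markers (left) and endothelium markers (right), with young libraries in blue, aged in orange and the library number beside each point. Aged library 4 lies highest on all of these scales, and the junction sums of the aged libraries all exceed those of the young.

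The genes whose pattern over the 10 libraries was most like that of Dmd were Usp9x (Pearson r = 0.998), 4932438A13Rik (r = 0.998) and Pot1a (r = 0.997), among 8215 genes above 0 in all libraries. Without the libraries numbered 3 the same r values were 0.947, 0.949 and 0.967 over 8 libraries. For Utrn they were Nabp1 (r = 0.955), Cbx5 (r = 0.936) and Cr1l (r = 0.93), and 0.944, 0.906 and 0.89 without those libraries. These are descriptions over points that share depth and library preparation.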

How the data were processed

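The authors purified poly-A RNA, made TruSeq libraries, sequenced paired-end reads, used TopHat2 and Bowtie2 to map them to mm10, the mouse genome build, and deposited 1 log2 FPKM value for each row and library. Replicates were not pooled. The counting program is not given in the sources used here. The methods name a RefSeq gene model, whereas the rows carry Ensembl and Vega transcript names. Exons shared by several transcripts therefore enter several rows, and small RNA sequencing was not analysed here. Some components of the complex are not reported here.

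The label of each library gave its age group and number. The values were used as deposited. limma 3.58.1 (R 4.3.3, default settings) was fitted to the 38059 rows with a mean FPKM of at least 1 (0 where listed at 0), with Benjamini-Hochberg adjustment over all of them and intervals at the 95% level. Rows without a gene symbol were 0.281% of those tested. Two-sided exact permutation tests served for single values, and the study's criteria used its 2-sample equal-variance test. Scripts were tested on simulated data. Reads and row lengths were recovered from the steps of the FPKM values and used to describe precision only. Lengths were matched to GENCODE M21 transcripts (GRCm38), and start-site windows came from RefSeq (GRCm38.p6), which matched 7 of 8 members. Scripts ran in Python 3.11.15 with scipy 1.17.1, pandas 2.3.3, numpy 2.4.6 and, for plots, matplotlib 3.10.9.

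Rows of highest mean favour genes with more rows. The members and lists were chosen with earlier results of these data known. Named genes were all members and the other components reported, from each other list the 2 with the lowest limma p plus any past the criteria, and the 3 genes most like Dmd and the 3 most like Utrn. Itga7, the marker genes and other rows of a gene, singly or in pairs, were named beyond this rule, the rows after their values were seen. No library pools mice, and the labels do not say whether the mice shared litters or cages.

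The numbers 1 to 5 occur in both groups although the mice differ. Over the rows tested, same-numbered libraries deviated from their group means together, with correlations of 0.131, 0.332, 0.695, 0.39 and 0.208 (other combinations had a mean of -0.0376), so a fit with the replicate number as a block was made as an alternative. Other alternatives were no filter, log2(FPKM + 1), 2 other scalings, other rows for a gene, and leaving out libraries.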

Additional observations from a re-analysis of the deposited data

Results flagged for a closer look

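In groups of 5 libraries, a single library stood apart from the other 4 by Dixon's criterion in 11 of 25 groups examined, where chance flags about 1 in 20. Among these, Sntb1 has its other 4 values tied at 0, so any value above 0 would be flagged there. Most of these were the libraries numbered 3, and the groups are not independent of each other, since they are the same 10 libraries. Young 3 was far below the other young libraries for Dmd at 2.18 log2 FPKM (others 3.29 to 3.65), for Dag1 at 3.64 (others 4.89 to 5.10), for Sgcb at 3.94 (others 4.39 to 4.52) and for Dtna at 3.13 (others 3.94 to 4.04). Aged 3 was far below the other aged libraries for Dmd at 0.59 (others 3.54 to 3.91), for Dag1 at 0.97 (others 4.74 to 5.31), for Sgca at 4.92 (others 7.43 to 7.73) and for Sspn at 3.21 (others 3.90 to 4.12). For Utrn minus Dmd, aged 3 was the highest at -0.59 (others -3.39 to -2.62), with Utrn listed at 0 there. Aged 4 was far above the other aged libraries for Sgcd at 3.45 (others 1.29 to 1.70). Sntb1, a beta-syntrophin, was at 0.19 in young 1 and listed at 0 in the other young libraries.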

How the results depend on the processing

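No member was called by limma under any alternative. Utrn and Dtna kept their sign under every alternative of libraries, scaling and filter, although Dtna was at 0.00 at its other row, and moved by over 1.5 times on leaving out 1 library, with 0.12 (without aged 4) to 0.43 (without aged 3) for Utrn and 0.06 (without young 3) to 0.42 (without aged 3) for Dtna, and quantile normalization gave 0.12 for Utrn. The other 6 turned sign under at least 1. Without both libraries numbered 3 the differences were 0.25 for Dmd, 0.09 for Dag1, 0.18 for Sgca and 0.05 for Sspn. Without those and aged 4, chosen after seeing the data, they were 0.20, 0.02, 0.18 and 0.00, and -0.40 for Sgcd. At other rows, also chosen after seeing the data, Dmd was at 0.14 (full-length row) and Sgca at 0.04 (10 exons) and 0.16 (row nearest the end of the gene). Leaving out 1 library at a time gave -0.38 to 0.50 for Dmd, -0.73 to 0.36 for Dag1, -0.50 to 0.21 for Sgca, -0.03 to 0.25 for Sgcb, -0.19 to 0.35 for Sgcd, -0.13 to 0.10 for Sspn and -0.08 to 0.62 for Utrn minus Dmd. The values above 0 for Dmd, Dag1, Sgca and Sspn and the lowest for Utrn minus Dmd came without aged 3. Sgcb turned to -0.03 without young 3 and to -0.02 without aged 4, and Sgcd to its lowest without aged 4.

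Over all rows, limma's 3 higher calls became 5 with log2(FPKM + 1), 0 with median-of-ratios scaling, 0 with quantile normalization, 0 with the replicate block, 11 without both libraries numbered 3 and 0 to 23 on leaving out 1 library, the highest without aged 3. The 35 rows lower by the study's criteria became 18 with the replicate block, 7 without both libraries numbered 3 and 12 to 47 on leaving out 1 library, the lowest without young 2. The genes of the further lists past the criteria became 2 with log2(FPKM + 1), 0 without both libraries numbered 3 and 0 to 2 on leaving out 1 library, with 0 when aged 4 was left out. The replicate block changed neither the call of any member nor the count of genes of the further lists past the criteria, moved the rows higher by the criteria from 217 to 176, and was not run for the marker genes. The cause of these shifts was not tested.

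An FPKM of 1 or less is listed as 0, which stands for 19.9 to 34.6 reads on a transcript of 1 kb, so changes of Utrn, Sgcd-003 or Dtnb below that level were not detectable. With 5 mice of each age, the intervals of Dmd, Dag1, Sgca and Sgcd include differences of 2-fold or more in at least 1 direction when all libraries are used.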
